A study of Saccharomyces cerevisiae with 8 samples.

Results

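Transcript levels of Saccharomyces cerevisiae grown in mixtures of cycloheximide and LiCl were set against the levels in each compound alone, to find genes whose level in the mixtures did not lie between those of the single compounds. The members were the 5 cultures at points 2 to 6 of a growth isobole, a series of conditions chosen to hold growth inhibition at 50%, and they were compared with the 2 ends of that series, point 1 (cycloheximide only) and point 7 (LiCl only). These are 7 of the 8 libraries of the study. The other library came from a culture in rich medium without drug. All cultures were of the laboratory strain BY4741, a haploid strain that carries deletions in HIS3, LEU2, MET15 and URA3, and were grown in YPD for about 17 h from a frozen stock diluted 130 times, with a further 100-fold dilution for the culture without drug. Ribodepleted total RNA was sequenced in each case, and transcript levels are given as CPM, the reads on a coding sequence (CDS) per 1000000 reads on all of them after scaling by the trimmed mean of M values (TMM). The compound ratio differed at every point and the concentrations were not used here, so the 5 mixtures are 5 different conditions and not replicates of a condition, and each end is 1 library. Except in the departure test below, the p-values therefore measure differences against the spread among the mixtures. They assume that the ends vary in the same way. The departure test uses the spread of the 7 isobole libraries around a fitted line.

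Cycloheximide binds the large ribosomal subunit and blocks the movement of the ribosome along the messenger. LiCl brings cationic and osmotic stress, and lithium ions inhibit enzymes of nucleotide and inositol metabolism in yeast. When compounds are mixed, a transcript may follow the compound in excess, which places it between the ends, or it may take a level that neither compound gives alone.

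The libraries of the ends were the deepest, with 23522386 and 28042336 CDS counts, against 13693401 to 17673770 for the mixtures and 15297969 without drug. In each library 12.7% to 15.1% of the counts fell on its 10 most abundant genes. LEU2, MET15 and URA3 had between 0 and 2 counts in every library, as the strain requires, whereas HIS3, whose allele removes only part of the gene, had 347 to 1266 counts. The first principal component of log2 CPM over the 7 isobole libraries (60.6% of the variance) ordered them broadly from cycloheximide to LiCl, with point 2 at -10.1 and point 3 at -14.3 out of order. On the second component (13.6%) the ends lay at 17.5 and 4.96 and the mixtures between -11.5 and -1.49, so that this component separated the mixtures from both ends.

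Most transcripts lay between or close to the ends. Of 6697 genes, 6397 had a mean of at least 20 counts per library and were tested. The mixture mean minus the mean of the ends had a median of -0.002 on the log2 scale, with quartiles at -0.13 and 0.12. All 5 mixtures lay above both ends for 299 genes (4.67% of those tested) and below both ends for 306 genes (4.78%), which is called no overlap hereafter. A random order of the isobole libraries within each gene would give shares close to these in both directions. The total counts alone therefore do not show levels specific to the mixtures. For the genes without overlap the mixture mean passed the nearer end by a median of 0.20 above and -0.25 below. Only 5 genes passed it by more than 2-fold upwards (TKL2, PUT4, NQM1, YBR116C and CWP1) and 5 downwards (YMR316C-A, YDR278C, YDL241W, DIA1 and ANB1). With scaling by total CDS counts, which lowers the median of all genes to -0.07, the numbers became 137 above and 477 below.

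**Figure D1:**
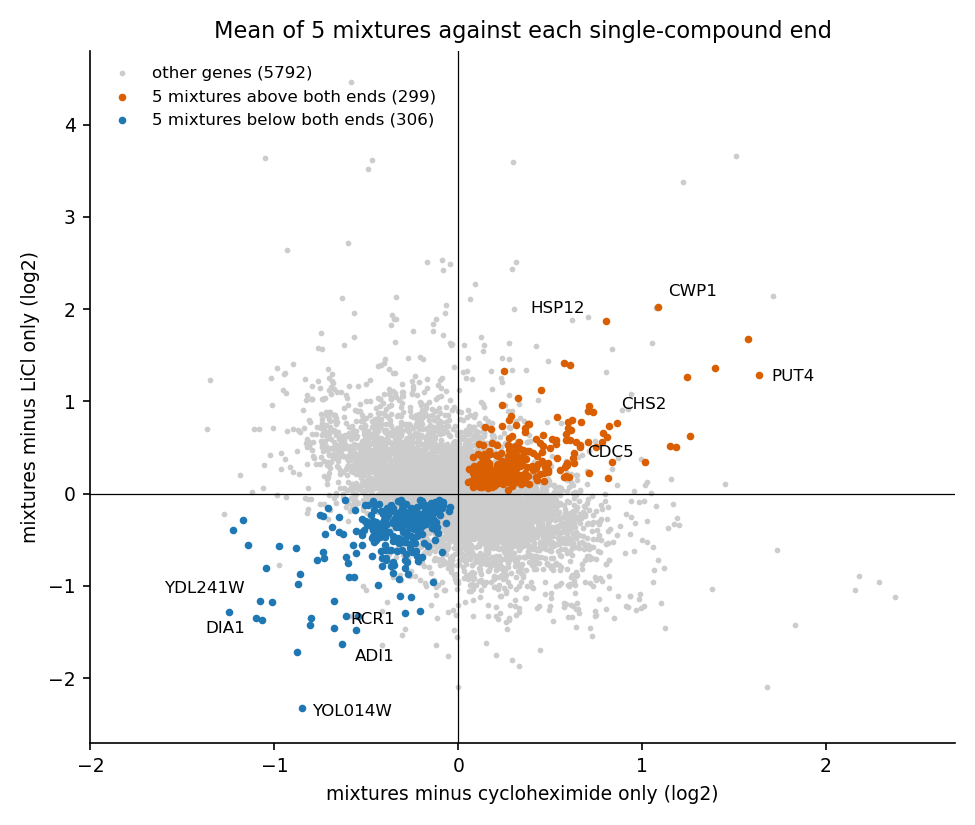
Difference in log2 CPM between the mean of the 5 mixtures and cycloheximide only (x axis) or LiCl only (y axis) for the 6397 genes tested. Orange points are the 299 genes with all 5 mixtures above both ends, blue points the 306 genes with all 5 below, and most genes lie near the origin or in the quadrants where the mixtures are between the ends.

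A difference from both ends was tested in edgeR (quasi-likelihood test) by taking the larger p of the contrasts with each end. No gene passed an adjusted p of 0.05 in either direction (0% above and 0% below), and none did with DESeq2. At an unadjusted p under 0.05 there were 43 genes above (0.672%) and 35 below (0.547%) in edgeR, and 39 and 25 in DESeq2. The smallest p was that of CHS2, at 0.000674 before adjustment. A second edgeR test fitted a line on the log2 scale over the point number to the 7 isobole libraries, with a shift for the mixtures. It tested that shift, called the departure from the line, and treated the points as equally spaced. It called 35 genes above the line (0.547%) and 20 below (0.313%), with adjusted p between 0.029 and 0.050. At an unadjusted p under 0.05 there were 501 (7.83%) and 466 (7.28%). Of the called genes, 29 of 35 and 20 of 20 also had no overlap with the ends. DESeq2 called 111 and 49, and edgeR with total-count scaling called 20 and 27. The edgeR calls depended on single libraries, since without point 3 or without point 5 there were 0 above and 0 below. Without points 2, 4 and 6 in turn there were 44, 27 and 19 above and 34, 12 and 10 below.

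The culture without drug was lower than both ends for 22 of the 35 genes above the line and higher than both for 2, and it was higher than both ends for 12 of the 20 genes below the line and lower than both for 2. Among all 6397 genes tested it was lower than both ends for 2183 and higher for 2148. Against the mixtures, whose levels chose these genes and so favour such a count, the culture without drug was lower than every mixture in 29 of the 35 and higher than every mixture in 19 of the 20. With the same limit, edgeR called 27 of the 35 higher and 18 of the 20 lower in the mixtures than without drug, against 12.3% and 9.99% of all genes tested. Genes above the line had a median CDS length of 1719 bases and those below it of 732, with 1128 for all genes tested. Across the 6397 genes, which are not independent replicates, Spearman's rho of the mixture mean minus the mean of the ends was 0.279 with CDS length, 0.335 with mean CPM and 0.0328 with the GC content of the CDS. All 5 mixtures lay above both ends for 1.56% of genes in the shortest quartile of CDS length and 9.70% in the longest, and below for 6.05% and 1.13%. From the lowest to the highest quartile of mean CPM, the share above went from 1.94% to 7.25% and the share below from 7.5% to 2.5%. After a correction of each library for its trend on CDS length, chosen after seeing the data, 22 genes were called above the line and 11 below, 21 and 11 of them among the original calls. The genes without overlap then numbered 242 above and 257 below, of which 167 and 171 were among the original 299 and 306.

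Among the gene lists, that of mitosis and cytokinesis had the most genes above both ends. Of 61 such genes, all 61 tested, 26 (42.6%) had no overlap above and 0 below, against 4.67% and 4.78% of all genes. Among the 61, 12 were called above the line, against 0.547% of all genes. The list was drawn up after the leading genes had been seen, so its share describes these libraries and supports nothing further. Among 48 genes of a general cell cycle list, 16 (33.3%) lay above both ends without overlap and 8 were called. The lists share 12 genes, and of the 97 genes in either, 32 had no overlap above and 14 were called. The mixture mean exceeded the mean of the ends in 57 of the 61 and 44 of the 48 genes, with medians of 0.19 and 0.20 over all members. The 61 genes had a median CDS length of 1833 bases, and after the correction for CDS length the number without overlap was again 26, while scaling by total counts gave 18 and 13 for the mitosis and cell cycle lists.

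The forkhead factors Fkh1 and Fkh2 bind, together with Mcm1, the promoters of many genes transcribed from G2 to mitosis, a cluster that includes CLB2, SWI5 and BUD4. The 7-letter forkhead word GTAAACA was searched on both strands of the 300 bases before each start codon in build R64. It occurred before 13 of the 35 genes called above the line (37.1%), 0 of the 20 below it and 6.77% of all genes tested. Of these 13, 4 were the acid phosphatase genes PHO3, PHO5, PHO11 and PHO12, of which the last pair share reads and are near-identical. It was present before 11 of the 26 mitosis genes without overlap (42.3%) and before 12 of the 35 other members of that list (34.3%), so the word was common in the list whether or not the mixtures stood apart. The word was absent from the window before CLB2, SWI5, CHS2, CDC5 and MOB1, which were also called above the line. It was chosen after seeing the genes, and a match is no evidence of binding. The sites of genes described next are shown as 30 bases read 5′ to 3′ on the strand of the gene, with the forkhead word in capitals, to show the word in its place before each gene.

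BUD4: tttggaaaaagGTAAACAacaatgaaatat
DBF2: ttattcaaaaaGTAAACAatgacatgtttc
HOF1: ttgggcaagttGTAAACAataaatggtaaa
MYO1: agggtaattgcGTAAACAtttgtaatttct
IQG1: aagaggaaagtGTAAACAttacaaattctt
ALK1: tttggtaaaacGTAAACAaaataacaatag

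These stretches lie at X:598543-598572 (BUD4), VII:667961-667990 (DBF2), XIII:335087-335116 (HOF1), VIII:151484-151513 (MYO1), XVI:95260-95289 (IQG1, minus strand) and VII:454687-454716 (ALK1). The capitals end 174, 210, 193, 164, 162 and 80 bases before the start codon, in the same order. In BUD4 and ALK1 an Mcm1 core (CC and GG with 6 free bases between them) stands close upstream of the forkhead word, as the 30 bases around it show with the core and its next 4 letters in capitals.

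BUD4, Mcm1 core: atagatgaCCCGATTTGGAAAAaggtaaac
ALK1, Mcm1 core: cgtctttgCCCTTTTTGGTAAAacgtaaac

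This Mcm1 core followed by NAAA, on either strand, was found before 7 of the 26 mitosis genes without overlap (26.9%) and 2 of the 35 other members (5.71%), against 4.10% of all genes. This word, like the list, was chosen after seeing the genes, so the shares describe these promoters and support nothing further.

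CHS2 (YBR038W, chromosome II, 311898 to 314789), which encodes the chitin synthase of the primary septum, had the smallest p against both ends. Its level was 37.3 CPM in cycloheximide only, 63.2, 64.6, 71.0, 68.8 and 61.7 at points 2 to 6, and 39.6 in LiCl only. The 5 mixtures were close to each other and all far above the ends, which were close to the 32.9 CPM of the culture without drug. The mixture mean was higher by 0.82 (SE 0.14) on the log2 scale than cycloheximide only and by 0.73 (SE 0.14) than LiCl only, and its departure from the line was 0.78 (SE 0.09, edgeR adjusted p = 0.0290).

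CDC5 (YMR001C, chromosome XIII, 269019 to 271136), the polo-like kinase that drives mitotic exit, had the same shape. It stood at 48.7 CPM and 49.8 CPM in the ends and at 71.2, 80.4, 74.1, 75.2 and 70.5 in the mixtures, with 32.1 without drug. The ends were nearly equal and the mixtures did not overlap them, with a departure of 0.59 (SE 0.09, edgeR adjusted p = 0.0290).

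SWI5 encodes a transcription factor that activates genes expressed at the transition from mitosis to G1. It had 45.6 CPM in cycloheximide only, 65.7, 73.3, 74.1, 69.7 and 62.0 in the mixtures, and 42.2 in LiCl only. It lay above the ends at every point, with a departure of 0.65 (SE 0.10, edgeR adjusted p = 0.0290). In a list of 17 daughter-cell separation genes, also drawn up after seeing the data, 0 had no overlap in either direction and 0 were called, which in a list of this size cannot be set apart from the 4.67% and 4.78% of all genes. The mixture mean exceeded the mean of the ends in 16 of the 17.

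Dbf2 is a kinase of the mitotic exit network and Mob1 its activating partner. DBF2 had 31.7 CPM and 27.99 CPM in the ends and between 42.5 and 54.5 in the mixtures. MOB1 had 24.9 and 23.9 in the ends and between 32.8 and 36.5 in the mixtures. Their departures were 0.71 (SE 0.10) and 0.49 (SE 0.08), and neither gene overlapped the ends at any point.

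The genes of the contractile ring and the bud neck moved in a like way. MYO1, the heavy chain of the ring myosin, had 86.8 CPM in cycloheximide only, 122.1, 142.3, 147.7, 153.4 and 142.1 in the mixtures and 96.0 in LiCl only. IQG1, the ring scaffold, had 61.7, then 90.3, 96.6, 106.0, 100.5 and 95.5, then 68.8. BUD4, which marks the bud site at the neck, had 78.3, then 110.5, 126.7, 129.4, 116.1 and 108.5, then 69.0. These 3 genes were highest at point 4 or 5 and all stood at less than 50 CPM without drug, with MYO1 at 49.9, IQG1 at 41.7 and BUD4 at 43.8. HOF1, a bud-neck protein of cytokinesis, ranged from 32.9 to 44.8 CPM in the mixtures, with 24.5 and 22.8 in the ends.

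ALK1, a haspin-like kinase, and CLB2, the main mitotic cyclin, were highest at point 6 rather than in the middle. ALK1 had 31.5 CPM and 37.3 CPM in the ends and 48.2, 50.5, 50.9, 56.0 and 59.0 in the mixtures. CLB2 had 31.7 and 37.4 in the ends and 46.8, 50.5, 47.4, 45.7 and 53.6 in the mixtures. The deacetylase gene HST4 had no overlap, with 5.76 and 4.70 CPM in the ends and 8.10, 7.92, 8.15, 9.37 and 8.20 in the mixtures, but its departure of 0.68 (SE 0.14) was not called (edgeR adjusted p = 0.0678).

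**Figure D2:**
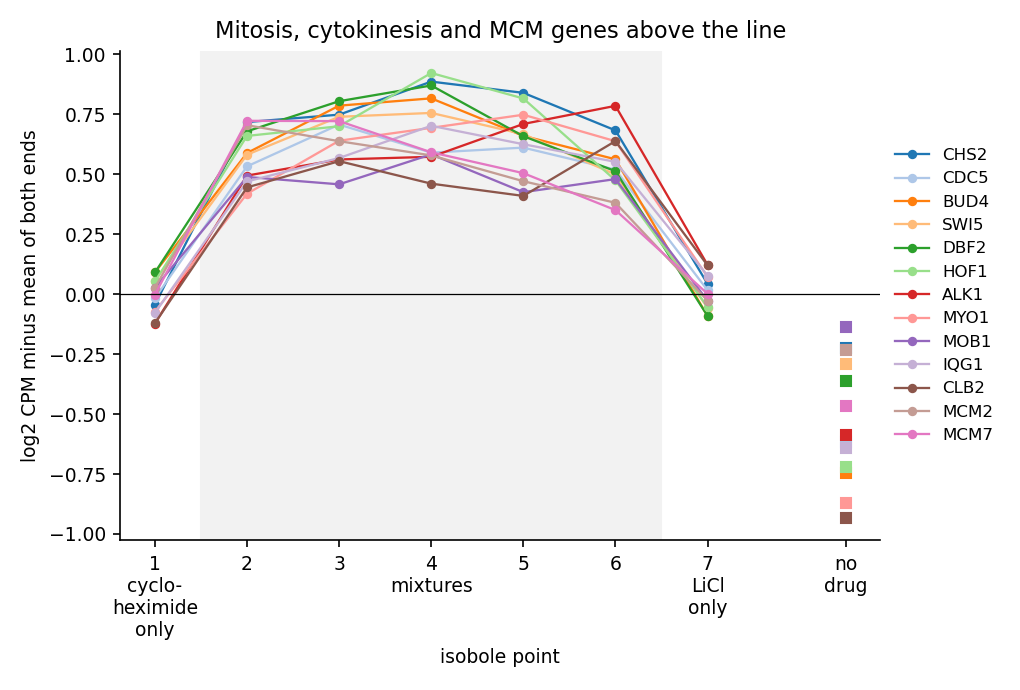
Log2 CPM minus the mean of both ends at isobole points 1 to 7 (circles) and without drug (squares) for 11 mitosis and cytokinesis genes and 2 MCM genes called above the line, 1 library per point. In the shaded mixtures every gene lies above 0.3, the ends lie near 0 and all squares lie below 0.

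MCM2 and MCM7, subunits of the replicative helicase loaded at origins from late mitosis, were the other cell cycle genes called above the line. MCM7 had 52.2 CPM in cycloheximide only, 86.3, 86.2, 78.8, 74.2 and 66.7 in the mixtures and 52.4 in LiCl only. MCM2 had 36.1, then 57.7, 55.1, 52.9, 49.1 and 46.1, then 34.8. Unlike the septum and ring genes, both were highest at point 2 and lower at each later mixture. MCM7 lay close to the threshold (edgeR adjusted p = 0.0496), with a departure of 0.58 (SE 0.11). Of the 8 genes in a helicase list drawn up after seeing the data, MCM2, MCM3, MCM4 and MCM7 (50%) had no overlap above. Over all genes tested the share was 4.67%, and in the longest quartile of CDS length it was 9.70%. The median CDS length of the list, 2572.5 bases, lies in that quartile. Mcm1 also binds the early cell cycle box of MCM promoters, and this box, the core with TTN before and NAA after it, was found before 2 of these 4 genes and before 1.14% of all genes. This box, too, was chosen after seeing the genes. It is shown in capitals for MCM7 (II:625552-625581) and MCM3 (V:86745-86774), on the gene strand, as examples of this second promoter word, which ALK1 and HOF1 also carry.

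MCM7: aaggaaaTTTCCTTATAAGGAAAataaatg
MCM3: aattactTTTCCTAAATGGGTAAaaactcg

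Cell wall genes formed the next group. Of 59 tested genes in a cell wall integrity list, which shares CHS2 with the mitosis list, 18 (30.5%) had no overlap above and 0 below. Over all genes tested the shares were 4.67% and 4.78%. The list had a median level of 107 CPM, and in the quartile of highest mean CPM 7.25% of genes had no overlap above. The mixture mean exceeded the mean of the ends in 46 of 59, with a median of 0.18. With scaling by total counts, 11 of the 59 had no overlap above.

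CWP1, a cell wall mannoprotein gene (YKL096W, chromosome XI, 261132 to 261851), showed the largest departure among the genes called above the line. It had 43.4 CPM in cycloheximide only, 67.1, 86.6, 112.7, 100.1 and 93.1 in the mixtures and 22.6 in LiCl only, against 26.8 without drug. The mixtures were higher by 1.08 (SE 0.26) than cycloheximide only and by 2.03 (SE 0.28) than LiCl only, and the departure was 1.54 (SE 0.26, edgeR adjusted p = 0.0435).

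SED1, a major stress-induced wall glycoprotein gene, had 546.6 CPM and 462.4 CPM in the ends and 894.5, 980.2, 1016, 857.9 and 726.5 in the mixtures. Its departure was 0.83 (SE 0.12, edgeR adjusted p = 0.0290). GFA1, the first enzyme of chitin precursor synthesis, was between 177.7 and 225.9 CPM in the mixtures, only just above the 176.3 of cycloheximide only, with 106.6 in LiCl only. EXG1, an exoglucanase, was between 348.1 and 433.2 in the mixtures, close above the 342.1 of LiCl only, with 218.5 in cycloheximide only. GFA1 and EXG1 thus stayed near the end with the higher level, and were called for their departure from the line of 0.59 (SE 0.10) and 0.48 (SE 0.09) rather than for a distance from both ends.

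Of 31 genes of a phosphate list, 5 were called above the line and 4 (12.9%) had no overlap above. Over all genes tested, 0.547% were called above the line and 4.67% had no overlap above. The list had a median level of 79.7 CPM, and in the quartile of highest mean CPM 7.25% of genes had no overlap above. The 5 were the transporter gene PHO84 and the acid phosphatase genes PHO3, PHO5, PHO11 and PHO12. PHO84 and PHO3 had no overlap with the ends, whereas PHO5, PHO11 and PHO12 overlapped them at some point. PHO84, the high-affinity phosphate transporter (YML123C, chromosome XIII, 24037 to 25800), had 571.4 CPM in cycloheximide only, 833.2, 711.9, 590.4, 625.4 and 628.6 in the mixtures and 268.8 in LiCl only. All mixtures were above both ends, though point 4 was close to cycloheximide only. PHO5, a secreted acid phosphatase, had 139.2, then 243.7, 244.1, 159.4, 145.4 and 71.7, then 30.4. Point 6 lay between the ends and the others above them, with a departure of 1.30 (SE 0.18, edgeR adjusted p = 0.0290).

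PHO11 and PHO12 encode nearly identical acid phosphatases that share reads, so they count as a single observation. PHO11 had 287.2 CPM in cycloheximide only, 325.5, 277.7, 191.3, 138.3 and 89.2 in the mixtures and 17.8 in LiCl only. Point 2 lay above both ends and points 3 to 6 lay between them, each lower than the one before. PHO3, the neighbour of PHO5 and an acid phosphatase gene that responds to thiamine, had the opposite course, with 84.0 in cycloheximide only, 151.8, 156.2, 141.3, 200.0 and 198.3 in the mixtures and 133.9 in LiCl only. The E-box CACGTG, bound by Pho4 and Cbf1, occurred in the 300 bases before 5 of the 35 genes called above the line (14.3%) and 3.41% of all genes. The 5 were PHO5, PHO11, PHO12, MOB1 and EXG1, so that 3 were phosphate genes and PHO11 and PHO12 among them count once. It is shown for PHO5 (II:431187-431216, minus strand) with the E-box in capitals, as an example of the acid phosphatase promoters.

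PHO5: ccttggcactcaCACGTGggactagcacag

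**Figure D3:**
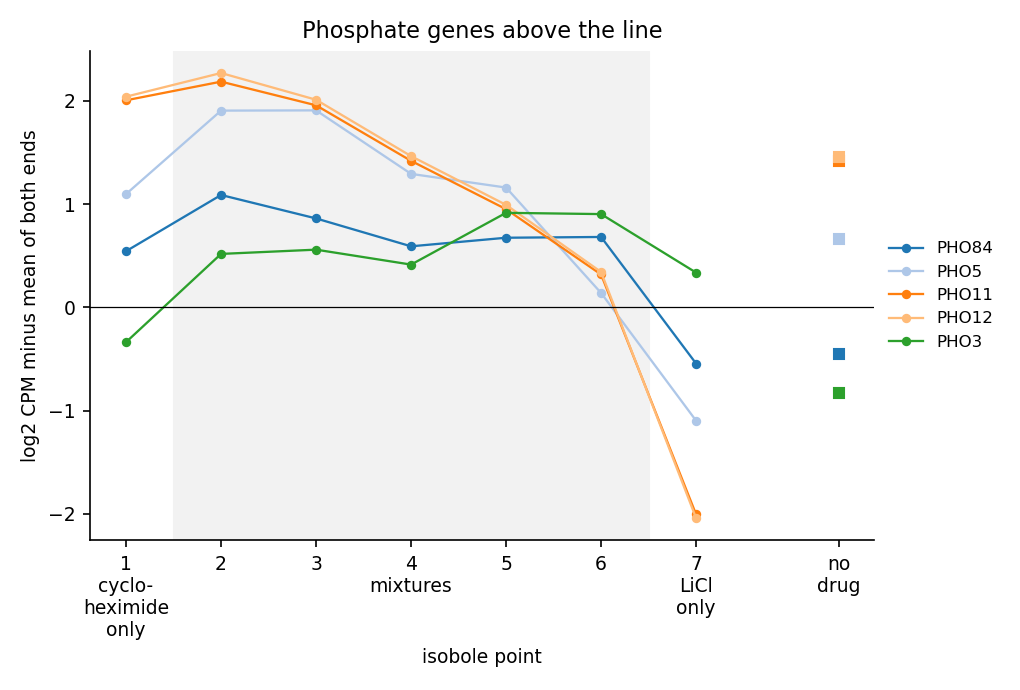
Log2 CPM minus the mean of both ends by isobole point (circles) and without drug (squares) for the 5 phosphate genes called above the line, 1 library per point. PHO11 and PHO12 run together from about 2 in cycloheximide only to about -2 in LiCl only, while PHO84 and PHO3 stay above both ends in the mixtures.

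The other 12 genes above the line came from several pathways. HSP12, a small membrane-associated stress protein, had the largest departure among them, with 519.7 CPM in cycloheximide only, 989.3, 1056, 1139, 778.6 and 566.7 in the mixtures, 247.6 in LiCl only and 40.1 without drug. Points 2 to 4 were far above the ends and point 6 close to cycloheximide only, with a departure of 1.31 (SE 0.18, edgeR adjusted p = 0.0290). PDR5, the main multidrug efflux pump, had 507.1 and 449.7 in the ends and between 625.8 and 749.2 in the mixtures, a departure of 0.55 (SE 0.09). ERG5, an ergosterol synthesis enzyme, had 63.7 and 40.0 in the ends and between 74.6 and 101.2 in the mixtures.

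Membrane and surface proteins were also among these genes. MSB2, an osmosensor of the Hog1 pathway, had 43.3 and 52.8 CPM in the ends and between 59.5 and 74.0 in the mixtures. PRY1, a sterol-binding secreted protein, had 68.1 and 105.9 in the ends and between 133.4 and 169.1 in the mixtures. MGA2, which regulates fatty acid desaturation, had 79.8 and 56.5 in the ends and between 85.5 and 98.4 in the mixtures. YNL058C (27.6 and 15.4 in the ends, 32.5 to 48.2 in the mixtures) overlaps YNL057W, so its reads cannot be assigned to either strand.

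In nitrogen metabolism, GDH1, which makes glutamate from ammonium, had 447.3 and 272.0 CPM in the ends and between 458.2 and 641.6 in the mixtures. AGP1, an amino acid permease, and CAR2, of arginine degradation, lay above the line but within the ends at several points, AGP1 from 61.6 to 105.1 in the mixtures with 89.0 and 35.1 in the ends, and CAR2 from 50.5 to 115.4 with 80.8 and 27.1. BNA5, of NAD synthesis from tryptophan, had 34.8 and 25.8 in the ends and 40.2 to 47.4 in the mixtures, and IZH4, linked to zinc metabolism, had 35.2 and 15.2 in the ends and 32.0 to 42.5 in the mixtures. CAR2 and BNA5 each overlap another annotated reading frame.

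Several genes with no overlap were far from the nearer end but were not called. PUT4, the proline permease (YOR348C, chromosome XV, 986899 to 988782), had 3.83 CPM and 4.87 CPM in the ends, 16.1, 11.9, 15.0, 8.02 and 8.71 in the mixtures and 0.936 without drug. It was higher in the mixtures by 1.64 (SE 0.42) than cycloheximide only and by 1.29 (SE 0.40) than LiCl only, and the departure did not pass (edgeR adjusted p = 0.0772). NQM1, a transaldolase, had 37.5 and 36.9 in the ends and 78.4, 109.8, 127.2, 70.7 and 58.0 in the mixtures (edgeR adjusted p = 0.1002). TKL2, a transketolase that acts in the same branch of the pentose phosphate pathway, had 14.9 and 13.9 in the ends and 52.2, 60.2, 69.4, 21.2 and 19.5 in the mixtures. Both enzyme genes were highest at point 4 and far closer to the ends at points 5 and 6, and the YBR116C frame overlaps TKL2. TKL2 is named after its values were seen.

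On the other side, ANB1, the form of translation factor eIF5A known for its expression at low oxygen, had 11.6 CPM and 12.96 CPM in the ends, 8.46, 4.36, 4.07, 6.17 and 5.89 in the mixtures and 13.6 without drug. Its departure of -1.10 (SE 0.23) was not called (edgeR adjusted p = 0.0784). YDR278C had 20.1 and 23.9 in the ends and 7.66, 5.83, 4.46, 10.7 and 18.3 in the mixtures, so that point 6 was close to cycloheximide only, and it was not called (edgeR adjusted p = 0.152). Both are named after their values were seen.

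Of the called genes below the line, 4 belonged to a list of calcium signalling. In yeast, cytosolic calcium activates calcineurin, which dephosphorylates the transcription factor Crz1 and so induces calcium pumps and its own pathway genes. In a list of 21 such genes drawn up after seeing the data, 5 (23.8%) had no overlap below and 0 above, against 4.78% and 4.67% of all genes. The 4 calls among the 21 compare with 0.313% of all genes tested called below the line. As the list was made with the called genes known, these shares describe these libraries only. The median mixture mean minus the mean of the ends over the 21 genes was -0.05, with 10 of 21 positive, so most of the list did not share the pattern.

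CMK2 (YOL016C, chromosome XV, 294777 to 296120), a calmodulin-dependent kinase, had 168.2 CPM in cycloheximide only, 91.4, 101.7, 106.0, 116.5 and 67.6 in the mixtures, 245.7 in LiCl only and 347.3 without drug. Every mixture was below both ends and point 6, which has the most LiCl of the mixtures, was the lowest although LiCl only was the higher end. The mixtures were lower by 0.80 (SE 0.24) than cycloheximide only and by 1.35 (SE 0.23) than LiCl only, with a departure of -1.08 (SE 0.19, edgeR adjusted p = 0.0483).

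RCR1, a membrane protein gene with a role in chitin deposition, had 23.0 CPM and 39.7 CPM in the ends and between 12.9 (point 6) and 15.5 (point 3) in the mixtures, against 48.7 without drug. YOR385W, of unknown function, had 38.5 and 59.3 in the ends and 22.6, 24.4, 23.6, 21.9 and 17.7 in the mixtures, against 67.2 without drug. In both genes the mixtures were close to each other and the no-drug culture was the highest library. CRZ1 itself had 35.4 and 74.0 in the ends and between 28.3 and 34.2 in the mixtures, so that it stood just under cycloheximide only and well under LiCl only, with a departure of -0.75 (SE 0.13, edgeR adjusted p = 0.0458). PMC1, the vacuolar calcium pump, had no overlap below, with 149.4 and 195.4 in the ends and between 108.1 and 146.3 in the mixtures, but was not called (edgeR adjusted p = 0.213). The Crz1 word GNGGCTG occurred before 1 of these 5 genes, YOR385W, and before 5.25% of all genes.

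**Figure D4:**
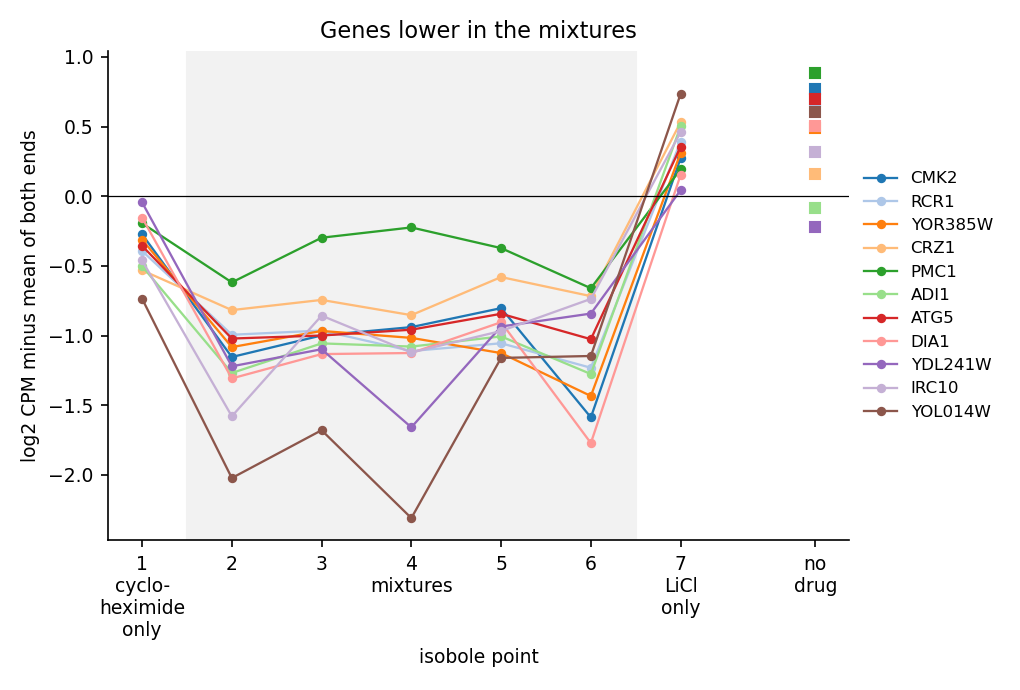
Log2 CPM minus the mean of both ends by isobole point (circles) and without drug (squares) for 11 genes with all mixtures below both ends, PMC1 included although it was not called. The shaded mixtures lie between about -0.2 and -2.3, LiCl only is the higher end for each gene and the squares of 9 genes are above 0.

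Among the genes called below the line, YOL014W had the largest departure (-1.63, SE 0.19, edgeR adjusted p = 0.0290). It had 5.88 CPM and 16.3 CPM in the ends, 2.41, 3.06, 1.97, 4.38 and 4.42 in the mixtures and 14.9 without drug. It lies on chromosome XV from 299693 to 300067, near CMK2 and IRC10 (297078 to 298838). IRC10 had 7.45 and 14.1 in the ends and between 3.43 and 6.15 in the mixtures. These 3 neighbouring genes were all below the line, and CMK2 and IRC10 are transcribed away from each other.

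DIA1 (YMR316W, chromosome XIII, 904825 to 905835), linked to invasive growth, had 97.8 CPM in cycloheximide only, 43.9, 49.6, 49.8, 58.1 and 31.8 in the mixtures, 120.9 in LiCl only and 154.6 without drug. Its departure was -1.22 (SE 0.19, edgeR adjusted p = 0.0317). The frame YMR316C-A overlaps it on the other strand and gave a similar course, which cannot be told apart from DIA1 because reads were counted without regard to strand. YDL241W, of unknown function, had 17.2 and 18.2 in the ends, nearly equal, and 7.59, 8.26, 5.60, 9.25 and 9.87 in the mixtures, a departure of -1.13 (SE 0.17).

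Genes of sulfur metabolism and autophagy were among the rest. ADI1, a dioxygenase of methionine salvage, had 29.9 and 60.0 CPM in the ends and 17.6, 20.4, 20.1, 21.1 and 17.5 in the mixtures, a departure of -1.14 (SE 0.14). MET14, which makes activated sulfate, had 14.5 and 10.9 in the ends and 8.46, 7.58, 8.40, 6.11 and 6.28 in the mixtures, far below the 82.3 without drug. Of 40 sulfate and methionine genes, 5 (12.5%) had no overlap below and only MET14 was called. ATG5, required to form autophagosomes, had 24.0 and 39.2 in the ends and between 15.1 and 17.1 in the mixtures, a departure of -0.97 (SE 0.11, edgeR adjusted p = 0.0290). Of 33 genes of autophagy and the vacuole, 4 (12.1%) had no overlap below and 1 above. Over all genes tested, 4.78% had no overlap below, 4.67% had none above and 0.313% were called below the line. The mixture mean exceeded the mean of the ends in 18 of the 40 and 19 of the 33 genes, so neither list moved downwards as a whole.

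HSP30, a plasma membrane stress protein and one of the more abundant of the genes below the line, had 110.8 and 198.5 CPM in the ends and 49.0, 61.1, 41.4, 90.8 and 59.0 in the mixtures. UIP3, PRM9 and DFP3 belong to the DUP240 family of similar membrane proteins, so their counts are uncertain. Their levels were 85.0, 17.0 and 7.89 CPM with cycloheximide alone and 69.4, 24.3 and 11.1 with LiCl alone, with mixtures of 43.1 to 58.3 for UIP3, 11.8 to 15.2 for PRM9 and 4.53 to 5.61 for DFP3. MNC1 and the overlapping frame YBR056C-B, called just inside the threshold, count as a single observation, with 13.3 and 12.9 in the ends and 6.41 to 8.90 in the mixtures for MNC1. YMR085W (10.9 and 10.5 in the ends, 5.64 to 7.51 in the mixtures) and YPR015C (2.90 and 5.00, 1.68 to 2.41) complete the 20 genes. YOR318C, at 1.97 and 1.67 in the ends and 0.637 to 1.15 in the mixtures, had no overlap but was not called (edgeR adjusted p = 0.128).

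Just outside the threshold of the departure test lay YLR297W, below the line by 0.54 (SE 0.10, edgeR adjusted p = 0.0502), and YBR138C, above it by 0.71 (SE 0.13, edgeR adjusted p = 0.0546). Neither was free of overlap with the ends, with 26.9 and 54.7 CPM in the ends and 19.3 to 33.1 in the mixtures for YLR297W, and 18.0 and 9.23 in the ends and 17.3 to 24.6 in the mixtures for YBR138C.

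Across the other gene lists, calls were few. The shares without overlap below are to be read beside those of all genes tested, 4.67% above and 4.78% below both ends. Of 37 proteasome genes, 7 (18.9%) had no overlap below and 0 above, with a median of -0.08 and 0 called, while total-count scaling gave 11 without overlap below and the correction for CDS length 4. Of 45 genes of nitrogen sources, 8 (17.8%) had no overlap above, and 2 with total-count scaling. Of 32 genes of inositol and phospholipids, 6 (18.8%) had no overlap above, among them the fatty acid synthase genes FAS1 and FAS2, and 1 below, INO1, the inositol synthase. Of 47 tested genes of meiosis and sporulation, with a median level of only 3.34 CPM, 5 (10.6%) had no overlap below. In the quartile of lowest mean CPM that share was 7.5% over all genes tested. The general stress genes had a mixture mean above the mean of the ends in 60 of 72, with a median of 0.30, and genes of the respiratory chain and TCA cycle in 52 of 56, with a median of 0.22, against 49.6% of all genes. In those lists 3 of 72 (4.17%) and 0 of 56 genes had no overlap above, close to or under the 4.67% of all genes. The mixture mean lay above both ends for 19 of the 72 and 7 of the 56 genes, against 17.6% of all genes tested. Among 137 ribosomal protein genes, 0 had no overlap above and 2 below, with a median of -0.05.

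**Figure D5:**
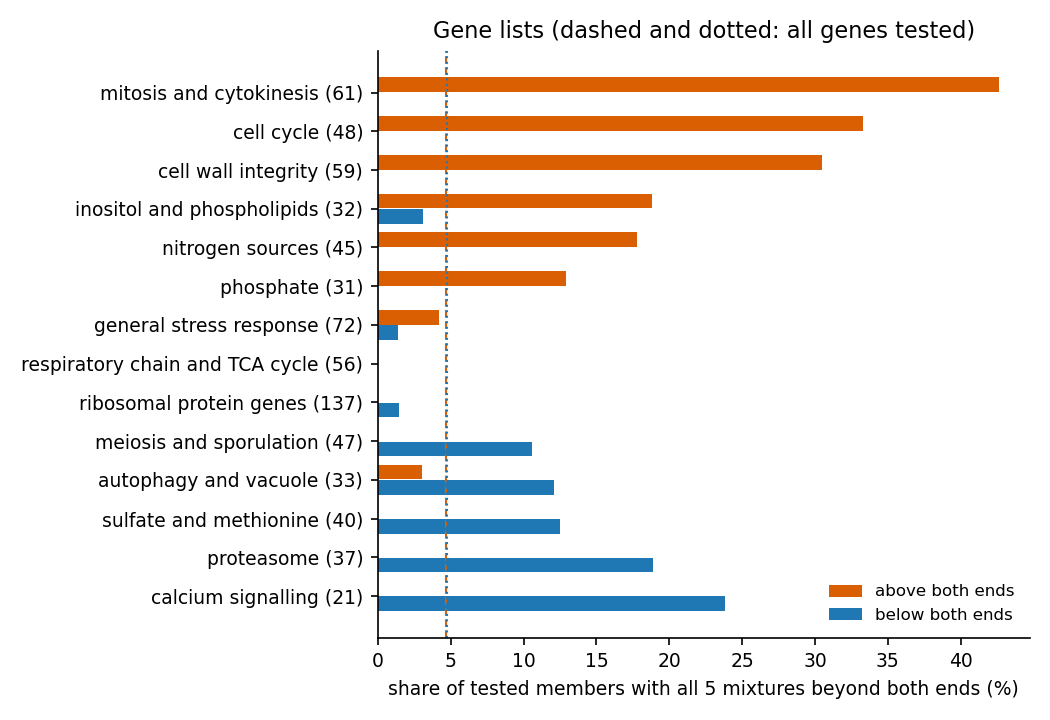
Share of the tested members of 14 gene lists (number in brackets) with all 5 mixtures above both ends (orange) or below both ends (blue). The dashed and dotted lines mark all genes tested, 4.67% above and 4.78% below, and the mitosis list reaches 42.6% above and the calcium list 23.8% below.

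More than 2-fold above both ends were 16, 17, 27, 3 and 2 genes at points 2 to 6, and more than 2-fold below both ends 17, 10, 18, 8 and 9. Genes above the line were most often highest at point 4 (13 of 35) or point 2 (11), and genes below it were most often lowest at point 6 (11 of 20). Among all genes without overlap the directions were alike in this respect, with 94 of 299 highest at point 4 and 92 of 306 lowest at point 4, followed by 68 at point 6. Whether the directions differed was not tested. These are counts from single libraries with no replicate check.

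Intron retention, the read density of an intron over that of its CDS, gave few cases. Of 255 introns, 0 had all mixtures above both ends and 4 (1.57%) had all below, those of BIG1, TAD3, PSP2 and SRC1. The retention of the SRC1 intron was 0.189 and 0.242 in the ends and 0.0654, 0.181, 0.114, 0.119 and 0.112 in the mixtures, and that of PSP2 0.271 and 0.602 in the ends and between 0.192 and 0.269 in the mixtures. Reads on the intron features of tRNA genes, in contrast, were lower in all mixtures as a sum, with 3048 CPM and 2981 CPM in the ends, 2051, 1194, 1505, 2064 and 2864 at points 2 to 6 and 2950 without drug. Of 49 such features with a mean of at least 20 counts, 12 had no overlap below and 0 above. The share below was 4.78% over all genes tested and 1.57% over the introns above. Multi-mapping reads were counted at each location, so similar tRNA genes can share reads and the 12 may not be separate observations. As 58 of the 60 features are shorter than a 50-base read, their counts come in part from reads on tRNA exons.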

How the data were processed

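Per the labels and the file headers, the authors aligned 50-base single-end reads with TopHat to genome build R64 and counted them with featureCounts 1.6.2. The deposited values are raw read counts per CDS or intron feature, with multi-mapping reads counted at each location, reads on overlapping features counted for each and no strand setting. Each condition was 1 library. Members, gene lists and motifs were chosen with earlier results of these data known. CDS counts were scaled by TMM, genes with a mean under 20 counts over the 7 isobole libraries were left out, and CPM were log2-transformed with a prior count of 0.5. The edgeR 4.0.16 quasi-likelihood test (R 4.3.3) was run on 4 groups (mixtures, each end, no drug), taking the larger p of 2 contrasts, and on the 7 isobole libraries with terms for point and mixture, with Benjamini-Hochberg adjustment over all genes and a threshold of 0.05. These tests were also run on simulated counts with straight courses over the points. Real courses need not be straight, so that run does not show how the tests perform here. DESeq2 1.42.0 was an alternative, as were other scalings and filters, thinning to the smallest library, points 3 to 5 alone, each mixture left out and a correction for CDS length. No overlap means that all 5 mixtures lay beyond both ends. Intron retention was the ratio of counts per base with a pseudocount of 0.5, for introns with a mean of at least 5 counts. Named genes were the 12 with the largest gap between mixtures and nearer end in each direction, called members of the lists, and the 2 genes on each side of the threshold. A gene that these rules select is not reported here. The other called genes, and genes said to be so, were added after their values were seen. Coordinates are those of the deposited files and sequences were read from RefSeq build R64, in which 5801 of the 6397 genes tested had identical coordinates.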

Additional observations from a re-analysis of the deposited data

Results flagged for a closer look

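HST4 was singled out because its level at point 5, 9.37 CPM, stood apart from the other 4 mixtures, which lay between 7.92 and 8.20 CPM. The gap to the nearest mixture was 0.795 of the range of log2 CPM, above the 5% critical value of 0.71 for 5 samples. It was the only value past that limit among 67 examined. Chance gives about 1 in 20, so 1 in 67 is no more than chance alone would give. Since the mixtures differ in compound ratio, a value that stands apart may also be part of the gradient, which was not tested.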

How the results depend on the processing

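No paired analysis was possible because the labels give no replicate numbers shared between groups. The number of genes past an adjusted p of 0.05 against both ends was 0 in each direction under all alternatives run. Total-count scaling moved the genes without overlap from 299 above and 306 below to 137 and 477 (136 and 299 shared), those called above the line from 35 to 20, cell wall genes from 18 to 11 and genes past 2-fold below at point 5 from 8 to 16. With points 3 to 5 alone there were 625 and 590 genes without overlap, which fewer samples make more likely, and 100 and 71 calls from the line. DESeq2 gave 111 and 49 calls, the correction for CDS length 22 and 11, and thinning 30 and 13. Leaving out 1 mixture gave 0 to 44 calls above the line (19 without point 6) and 0 to 34 below (12 without point 4, 10 without point 6), 333 to 435 and 349 to 445 genes without overlap, and 16 to 19 cell cycle, 18 to 20 cell wall, 26 to 29 mitosis and 5 to 6 calcium genes. A mean of 20 intron counts left 2 introns below instead of 4. The cause of these shifts was not tested. DESeq2 size factors, filterByExpr and no filter moved none of these counts by over 1.5 times, and no named gene reversed its direction of departure under any alternative. Without point 3, and without point 5, 55 named genes lost their call.

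With 1 library per condition, differences between single libraries carry no replicate check. The ends were sequenced more deeply than the mixtures. After thinning all libraries to the smallest, 249 of the 299 and 225 of the 306 genes remained without overlap. At low levels, such as the 0.637 CPM of YOR318C at point 4, few reads decide a value.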
